A study of Homo sapiens with 12 samples.

Results

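The 5 complexes of oxidative phosphorylation are built from subunits of 2 genomes, and 100 genes of this machinery were followed in 143B cells, an established human osteosarcoma line labelled wild type. Members were the 13 protein genes of the mitochondrial genome and every nuclear symbol of the NDUFA, NDUFB, NDUFC, NDUFS, NDUFV, SDH, UQCR, COX4 to COX8 and ATP5 families, together with CYC1, that had at least 10 counts summed over the 12 libraries. Of 24180 symbols in the deposited tables, 103 matched and 100 passed that minimum. COX7A1, ATP5MGL and UQCRB-AS1, with 2, 4 and 4 counts in all, stayed out. The members were 13 mitochondrial genes, 82 nuclear genes named as subunits (36 of complex I, 4 of II, 10 of III, 15 of IV and 17 of V) and 5 antisense or divergent transcripts that carry a subunit's name. NDUFA4 and its relative NDUFA4L2, first described as complex I subunits, were placed with complex IV.

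The 12 RNA-seq libraries form 4 groups of 3. M-BSG-Hot is titled 5-MNP-BSG (+), M-BSG is titled 5-MNP-BSG, BSG carries its own name only, and NC is the control. Bioactive borosilicate glass and heating in a magnetic field are named in the study's title, but all 12 samples, NC among them, carry a single treatment text (the 5-MNP-BSG system under an alternating magnetic field), so the material, field and exposure of each group are not given. The medium was DMEM with fetal bovine serum for all groups. Separate cultures for the replicates are not mentioned, so p-values measure only the spread between these libraries, which may be technical.

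The respiratory chain passes electrons from NADH (complex I) and succinate (complex II) through coenzyme Q, complex III and cytochrome c to oxygen at complex IV, and complex V, the ATP synthase, uses the proton gradient that this builds. Mitochondrial DNA encodes core membrane subunits of complexes I, III, IV and V and none of complex II, and its genes are transcribed as long polycistronic RNAs that are cut at the tRNAs between them. All other subunits are made from nuclear genes and imported, so each complex with mitochondrial subunits needs products of both genomes.

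Library totals lay between 34434993 and 38163152 counts. CPM are library-scaled counts, adjusted by TMM factors except for the cell-type markers given next. Mesenchymal VIM was at 3606 to 4411 CPM and SPARC at 317 to 391 CPM. Of the same marker list, COL1A1 was only at 5.15 to 9.24 CPM and RUNX2 at 9.80 to 16.9 CPM, and COL1A2 was not among the deposited symbols. Epithelial KRT19 stayed at or under 0.451 CPM and CDH1 at or under 0.174 CPM, and endothelial PECAM1 was at or under 2.10 CPM. Epithelial EPCAM was present at 14.2 to 20.8 CPM. BSG 1, M-BSG 1 and M-BSG-Hot 3 stood apart from their own replicates: chi-square over gene counts, divided by its degrees of freedom, reached 65.4 between BSG 1 and BSG 2 and 60.3 between M-BSG 1 and M-BSG 2, against 3.43 between NC 2 and NC 3. Every replicate pair therefore differed by more than sampling noise.

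Per length, the mitochondrial genes were the most abundant members. In FPKM, which divides counts by gene length and library total, all 13 ranked above every nuclear member in NC. COX2, a subunit of the complex IV catalytic core, led with 13763 ± 946 FPKM (SD, n = 3 NC libraries), followed by COX1 with 11216 ± 653 and COX3 with 11141 ± 826. These are the 3 complex IV genes of the mitochondrial DNA, and the mean ± SD ranges of COX1 and COX3 overlapped. ATP6, the proton-channel subunit of complex V, had 6602 ± 349 FPKM and ND4, a proton-pumping subunit of complex I, had 6333 ± 435, again with overlapping ranges. Genes of a pair are read in the same libraries, so these SDs do not measure the difference between them within a library. CYTB, the only mitochondrial gene of complex III, had 3721 ± 224 FPKM. Lower in the order were ND1 at 2643 ± 162 FPKM and ND2 at 2318 ± 183 FPKM, both membrane-arm subunits of complex I. ND6, the only protein gene of the light strand, was lowest at 506 ± 14.8 FPKM. The median over the 13 genes was 3721 FPKM, against 65.7 FPKM over the 82 nuclear subunits. ATP5F1B, the catalytic beta subunit of the ATP synthase, led the nuclear genes with 439 ± 8.66 FPKM.

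Of the 13 mitochondrial genes, 3 were higher in M-BSG-Hot than in NC, 4 in M-BSG and 5 in BSG, and none was lower in any of the 3 comparisons (edgeR quasi-likelihood test, adjusted p under 0.05 over 15407 genes). ND1, ND2 and CYTB passed in all 3. Genes called higher made up 1.4% of all tested genes in M-BSG-Hot against NC, 3.22% in M-BSG against NC and 5.5% in BSG against NC, and genes called lower 3.51%, 3.13% and 6.22% in the same order. The 3 comparisons share the NC libraries, so they are not independent of each other. In bulk RNA, a change in RNA per cell and a change in the mix of cells cannot be told apart.

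ND1, which helps to form the quinone-binding site of complex I, had 3216, 3386 and 3643 CPM in M-BSG-Hot, 4289, 3317 and 3541 CPM in M-BSG, and 4291, 3603 and 3999.6 CPM in BSG, against 2642, 2322 and 2357 CPM in NC. Each of the 9 treated libraries lay above each NC library. The log2 fold change over NC was 0.49 in M-BSG-Hot (SE 0.104, adjusted p = 0.0147), 0.61 in M-BSG (SE 0.104, adjusted p = 0.00269) and 0.70 in BSG (SE 0.104, adjusted p = 0.000656), that is 1.4-fold, 1.52-fold and 1.62-fold. The call in M-BSG-Hot was lost without NC 2, NC 3 or M-BSG-Hot 3, and those in M-BSG and BSG were kept in all 23 alternative analyses.

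ND2 had 3073, 3323 and 3245 CPM in M-BSG-Hot, 4025, 3052 and 3168 CPM in M-BSG, and 3968, 3049 and 3398 CPM in BSG, against 2572, 2178 and 2250.2 CPM in NC. Here too no treated library overlapped NC. The log2 fold change was 0.46 in M-BSG-Hot (SE 0.118, adjusted p = 0.0385), 0.55 in M-BSG (adjusted p = 0.0119) and 0.57 in BSG (adjusted p = 0.00647). The call in M-BSG-Hot was lost in 8 of 23 alternative analyses, among them leaving out any 1 M-BSG-Hot library, while that in M-BSG was lost in 2 and that in BSG in 0. CYTB, the heme-bearing core of complex III, had 5394, 5238 and 5815 CPM in M-BSG-Hot, 6090.4, 5336 and 5195 CPM in M-BSG, and 5879, 5084 and 5390.0 CPM in BSG, against 4429, 3869 and 4005 CPM in NC. Its 3 fold changes were nearly the same size, 0.42 in M-BSG-Hot (SE 0.0900, adjusted p = 0.0147), 0.43 in M-BSG (adjusted p = 0.00939) and 0.41 in BSG (adjusted p = 0.00989) on the log2 scale. Leaving out NC 2 or NC 3 ended the CYTB call in each group, and leaving out M-BSG-Hot 3 ended it in M-BSG-Hot.

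ND6 and ND3 passed in fewer groups. ND6 had 326, 269 and 262 CPM in M-BSG-Hot, 360.4, 365 and 336 CPM in M-BSG, and 472, 358 and 361 CPM in BSG, against 267, 253 and 249 CPM in NC. The M-BSG and BSG libraries lay above NC (log2 0.46, adjusted p = 0.0207, and log2 0.63, adjusted p = 0.00211), while M-BSG-Hot overlapped it (log2 0.16, SE 0.110, adjusted p = 0.508). The ND6 call was lost in 5 of 23 alternatives in M-BSG and in 1 in BSG. ND6 lies antiparallel to the other protein genes and whether counting used strand is not given, so reads of the opposite strand cannot be told apart from its own. ND3 rose in BSG, with 942, 608 and 725 CPM in BSG against 606, 447 and 467 CPM in NC (log2 0.58, SE 0.171, adjusted p = 0.0425). This call was lost in 9 of 23 alternative analyses, among them leaving out BSG 1 or BSG 3.

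**Figure D1:**
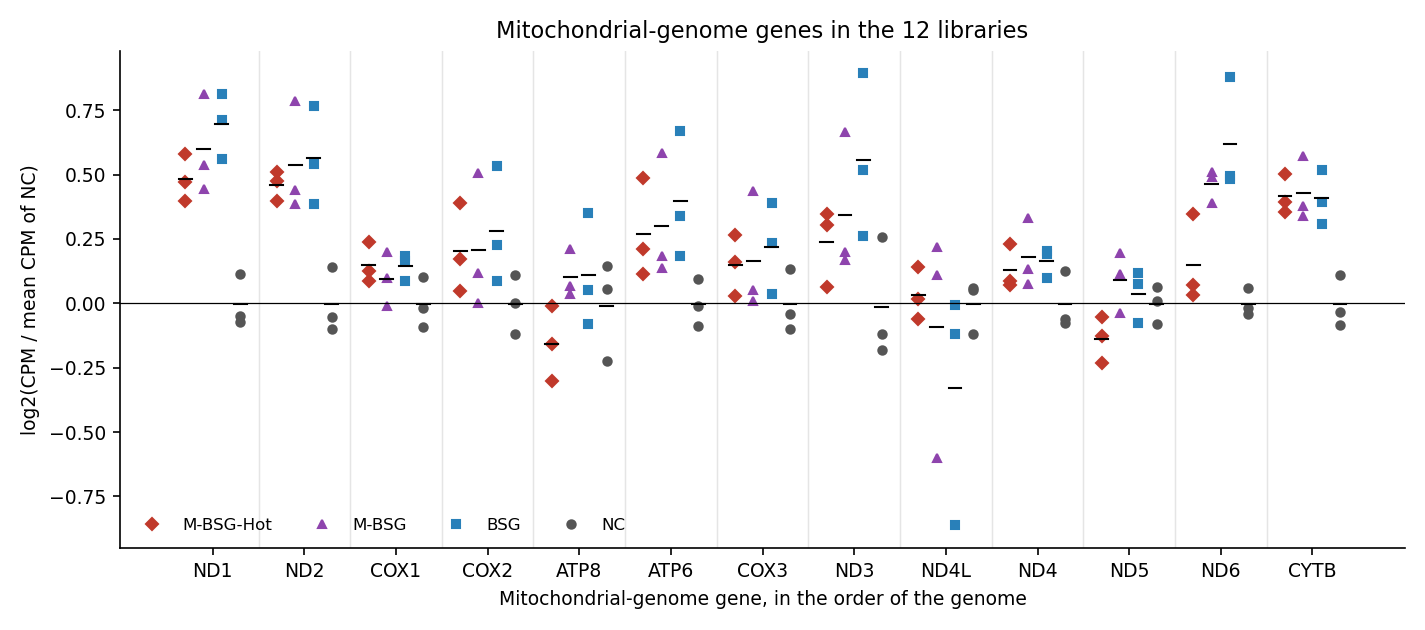
Each point is 1 library, placed at the log2 of its CPM over the mean CPM of the 3 NC libraries, for the 13 mitochondrial-genome genes in genome order; black bars are group means of these log2 values. ND1, ND2 and CYTB separate all 9 treated libraries from NC, COX1, ND4 and ND5 do not, and BSG 1 and M-BSG 1 are low for ND4L.

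In the main fit the other mitochondrial genes did not pass in any of these comparisons. COX1 had 17721, 18248 and 19698 CPM in M-BSG-Hot, 19183, 16604 and 17885 CPM in M-BSG, and 18719.8, 17758 and 18958 CPM in BSG, against 17958, 15669 and 16491 CPM in NC, so every group overlapped NC. ND5 had log2 fold changes over NC of -0.14 in M-BSG-Hot, 0.09 in M-BSG and 0.04 in BSG, each with an SE of 0.0853. ATP6 lay above NC in all 9 treated libraries without passing, with log2 fold changes of 0.28 in M-BSG-Hot, 0.32 in M-BSG and 0.41 in BSG (adjusted p = 0.346, 0.254 and 0.0746). Some alternative analyses called it in BSG, among them DESeq2 (adjusted p = 0.0337), and others did not. With the gene length trend removed, edgeR called ATP6 in M-BSG-Hot, M-BSG and BSG (log2 0.18, 0.24 and 0.16, adjusted p = 0.0329, 0.00421 and 0.0354). COX2, COX3 and ND4 had log2 fold changes between 0.13 and 0.29 over NC in the 3 groups, and ATP8 between -0.15 and 0.12. ND4L set 2 libraries apart from all others, at 845 CPM in BSG 1 and 1013 CPM in M-BSG 1 against 1415 to 1788 CPM in the remaining 10. ND4L overlaps ND4 in the genome, as ATP8 overlaps ATP6 and ATP6 overlaps COX3, and how the authors assigned reads shared by such pairs is not given.

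Ratios between mitochondrial genes within a library do not depend on the scaling of libraries. They can still follow gene length, since ND1 (956 bases) and ND2 (1042 bases) are shorter than COX1 (1542 bases). CYTB (1141 bases) is likewise shorter than ND5 (1812 bases), and the part of length in these ratios was not tested. The count of ND1 over that of COX1 was 0.182, 0.186 and 0.185 in M-BSG-Hot, 0.224, 0.200 and 0.198 in M-BSG, and 0.229, 0.203 and 0.211 in BSG, against 0.147, 0.148 and 0.143 in NC. The 3 NC libraries were lowest, and the M-BSG-Hot libraries lay between NC and every M-BSG library. ND1 made up 4.87 ± 0.0449% of all mitochondrial counts in M-BSG-Hot, 5.21 ± 0.120% in M-BSG and 5.43 ± 0.0502% in BSG, against 4.00 ± 0.0695% in NC (SD, n = 3 each). COX1 made up 26.5 ± 0.385%, 25.2 ± 1.22% and 25.4 ± 1.39% in the treated groups in that order, against 27.4 ± 0.138% in NC.

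Of the other pairs, some separated the treated libraries from NC and some did not. ND2 over COX1 averaged 0.173 ± 0.00867 in M-BSG-Hot, 0.190 ± 0.0173 in M-BSG and 0.188 ± 0.0214 in BSG, against 0.140 ± 0.00342 in NC. CYTB over ND5 averaged 2.61 ± 0.135 in M-BSG-Hot, 2.25 ± 0.151 in M-BSG and 2.31 ± 0.327 in BSG, against 1.78 ± 0.0558 in NC. All treated libraries exceeded NC in both ratios, and CYTB over ND5 was higher in every M-BSG-Hot library than in any M-BSG library. ND4L over ND4 was 0.0878 in BSG 1 and 0.0955 in M-BSG 1, and 0.157 to 0.201 in the remaining 10 libraries, so M-BSG-Hot and M-BSG overlapped NC. ATP6 over ATP8 averaged 11.2 ± 2.56 in M-BSG-Hot, 9.59 ± 2.03 in M-BSG and 10.2 ± 2.24 in BSG, against 8.29 ± 0.656 in NC, and M-BSG and BSG overlapped NC. These ratios were chosen with the gene values known and carry no test, so their separation from NC adds no support to those values. They restate the same counts within a library and do not show which gene of a pair moved.

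**Figure D2:**
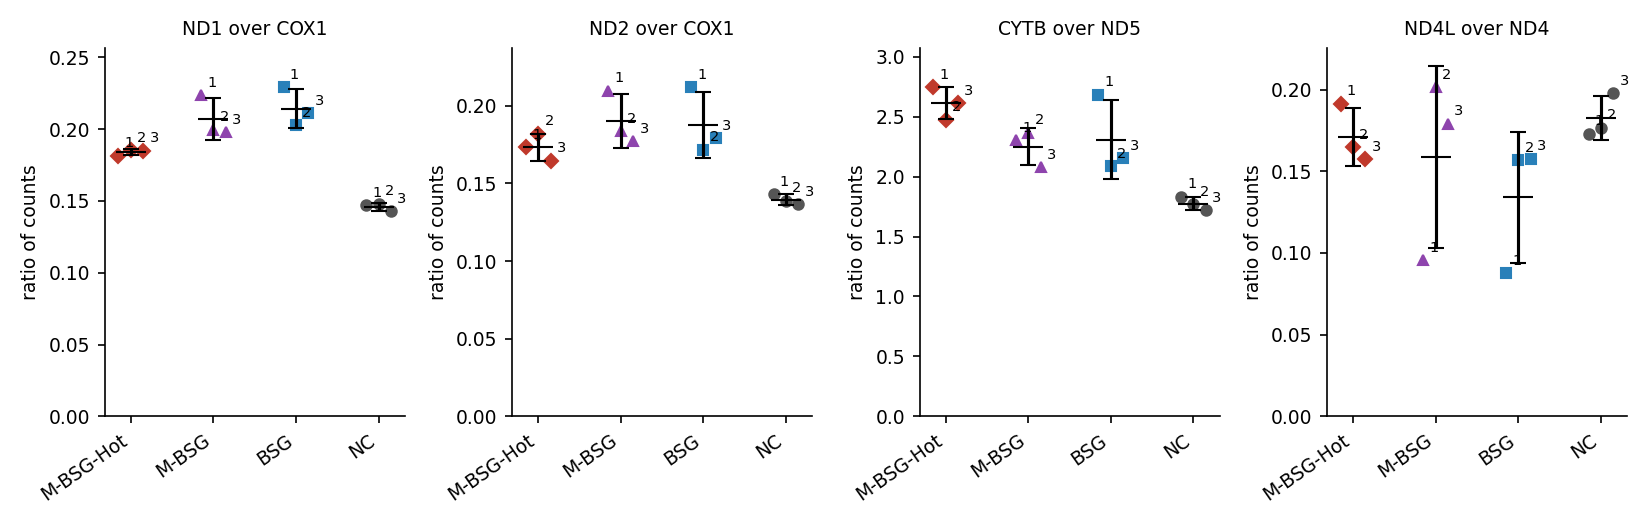
Ratios of counts between pairs of mitochondrial genes, 1 point per library labelled with its replicate number, with the group mean and SD in black. ND1 over COX1, ND2 over COX1 and CYTB over ND5 are lowest in the NC libraries, and ND4L over ND4 is lowest in BSG 1 and M-BSG 1.

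Summed over its 13 genes, the mitochondrial genome held 6.58%, 6.91% and 7.28% of counts in M-BSG-Hot, 7.82%, 6.56% and 6.85% in M-BSG, and 7.47%, 6.76% and 7.22% in BSG, against 6.75%, 5.98% and 6.22% in NC. The 82 nuclear subunits together held 1.01%, 1.04% and 1.15% in M-BSG-Hot, 1.13%, 0.947% and 0.988% in M-BSG, and 1.29%, 1.01% and 1.09% in BSG, against 1.05%, 0.971% and 0.980% in NC. The half-width of the Wilson 95% interval was at most 0.00859 percentage points for the mitochondrial share and 0.00361 for the nuclear one, which covers counting error only and is far below the spread between replicates. Both shares overlapped NC in M-BSG-Hot and M-BSG; in BSG the nuclear share overlapped NC as well, and the mitochondrial share lay above NC by a small margin. The ratio of mitochondrial to nuclear counts was 6.52, 6.66 and 6.32 in M-BSG-Hot, 6.93 in all 3 M-BSG libraries, and 5.79, 6.69 and 6.64 in BSG, against 6.46, 6.15 and 6.35 in NC. M-BSG alone lay above NC in all 3 libraries.

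**Figure D3:**
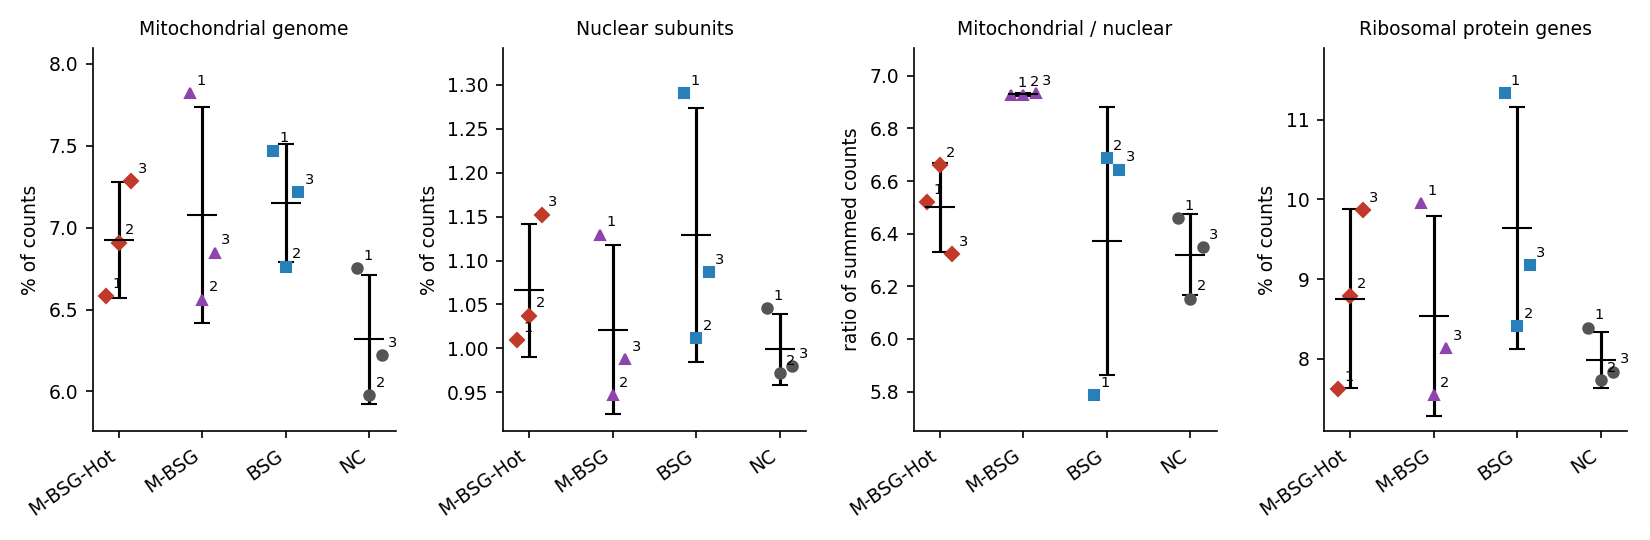
Shares of all counts, in percent, for the 13 mitochondrial genes, the 82 nuclear subunits and 83 cytosolic ribosomal protein genes, and the ratio of mitochondrial to nuclear counts; points are libraries labelled by replicate number, black bars the group mean and SD, and the axes do not start at 0. BSG 1 is the highest library for the nuclear subunits (1.29%) and for the ribosomal proteins (11.3%).

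The nuclear subunits gave 1 call in all, and the 5 antisense or divergent transcripts, of which 4 had enough counts to be tested, gave none. ATP5MK, a small membrane subunit of the ATP synthase also known as DAPIT, was higher in BSG, with 116, 76.7 and 91.7 CPM in BSG against 73.4, 64.4 and 70.0 CPM in NC (log2 0.45, SE 0.128, adjusted p = 0.0367). The BSG libraries lay above NC, BSG 2 by a small margin. The call was kept in 15 of 23 alternative analyses and was lost without BSG 1, without BSG 3 and without any 1 NC library. In M-BSG-Hot the log2 fold change of ATP5MK was 0.14 and in M-BSG 0.17, neither past the threshold.

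Without passing singly, the nuclear subunits leaned one way. Their median log2 fold change over NC was 0.16 in M-BSG-Hot (74 of 80 tested above 0), 0.11 in M-BSG (70 of 80) and 0.30 in BSG (76 of 80), against medians of 0.00, -0.01 and -0.02 over all tested genes. At an unadjusted p under 0.05 stood 2 of 80 in M-BSG-Hot, 1 in M-BSG and 44 in BSG, beside 2592, 2826 and 4702 of all 15407 genes. The 3 BSG libraries lay wholly above NC for 31 of 80 subunits, where 18.1% of all tested genes did so; for M-BSG-Hot it was 23 of 80 beside 13.5%, and for M-BSG 5 of 80 beside 12.4%. DESeq2 called 17 nuclear subunits higher in BSG, where it called 8.3% of all genes higher, and none in M-BSG-Hot (2.19% of all genes) or M-BSG (3.92%).

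These medians and counts moved with single libraries. BSG 1 was the highest of the 12 libraries for 70 of the 80 tested subunits, and the lowest was NC 2 for 37 and M-BSG 2 for 28. Without M-BSG-Hot 3 the median of the nuclear subunits in M-BSG-Hot was 0.08, without M-BSG 1 that in M-BSG was -0.0036, with 39 of 80 above 0, and without BSG 1 that in BSG was 0.15. Over all omissions of 1 library the median ran between 0.08 and 0.21 in M-BSG-Hot, between -0.0036 and 0.18 in M-BSG, and between 0.15 and 0.40 in BSG. The number called higher in BSG reached 31 without BSG 2, where 7.91% of all genes were higher, and was 0 without BSG 1, BSG 3 or any 1 NC library. With BSG 1, M-BSG 1 and M-BSG-Hot 3 left out together, 9 were called higher in BSG (7.07% of all genes) and NDUFS7, a complex I subunit with an iron-sulfur cluster, was lower there (log2 -0.25, 9.22% of all genes lower) and in M-BSG (log2 -0.32, 5.93%).

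The nuclear subunit share ran with gene length. Nuclear subunit genes have a median length of 1276.5 bases in the deposited tables and the mitochondrial genes one of 784, against 3986 over all tested genes. The slope of log2 CPM on gene length, per doubling of length and relative to the mean over libraries, was lowest in BSG 1 (-0.18), M-BSG 1 (-0.08) and M-BSG-Hot 3 (-0.07), and these libraries had the 3 highest nuclear shares. It was highest in M-BSG 2 (0.09), which had the lowest. The share of 83 cytosolic ribosomal protein genes, also short, was likewise highest in BSG 1 (11.3%) and lowest in M-BSG 2 (7.55%). With the length trend removed from each library, the median log2 fold change over NC in BSG was 0.10 for the nuclear subunits and 0.04 for the mitochondrial genes, while 10 nuclear subunits and 5 mitochondrial genes were called higher in BSG, where 8.33% of all genes were. ND1, ND2, CYTB and ATP6 were called in that analysis in M-BSG-Hot and M-BSG as well (2.51% and 5.11% of all genes higher). ND3 was called there in M-BSG too, and ND6 was not called in any group. Whether the length trend is technical was not tested.

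**Figure D4:**
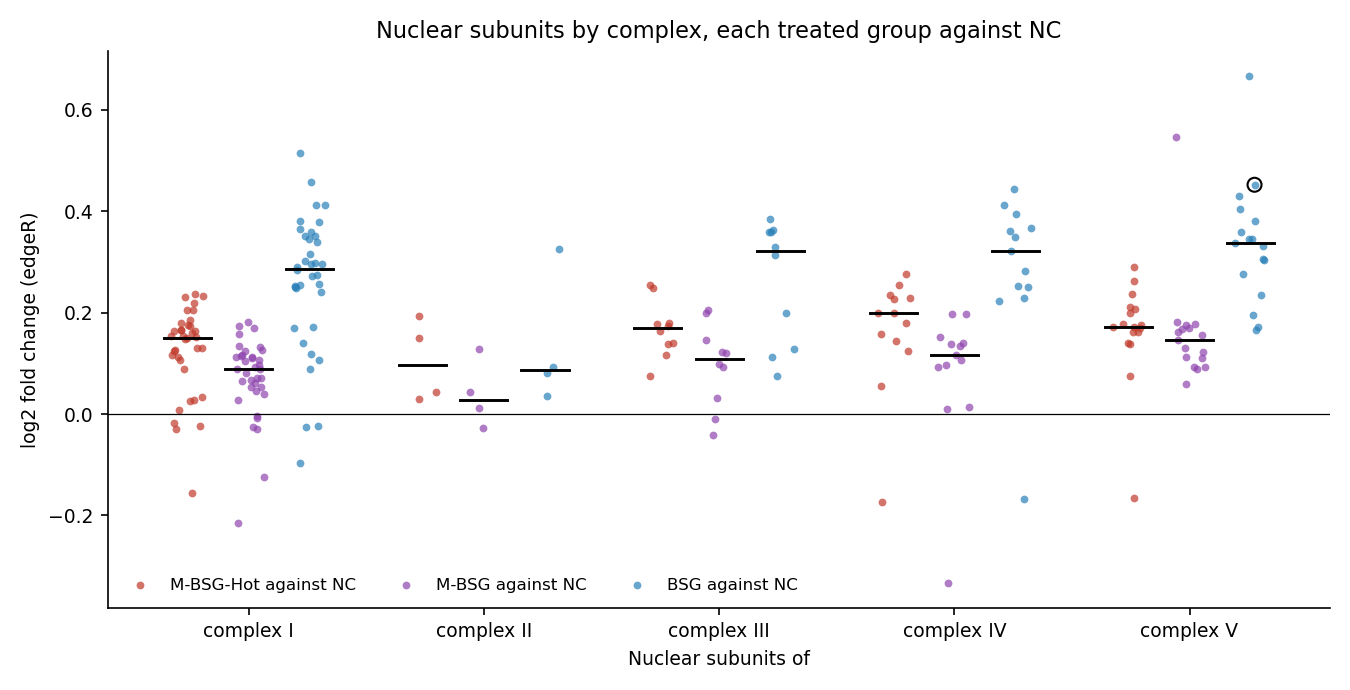
Log2 fold change over NC of each tested nuclear subunit, by complex, for M-BSG-Hot, M-BSG and BSG; each point is 1 gene, black bars are medians and a ring marks the 1 called gene, ATP5MK in BSG. Complex II sits lowest in BSG, with a median of 0.09, and complexes I, III, IV and V lie between 0.29 and 0.34.

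**Figure D5:**
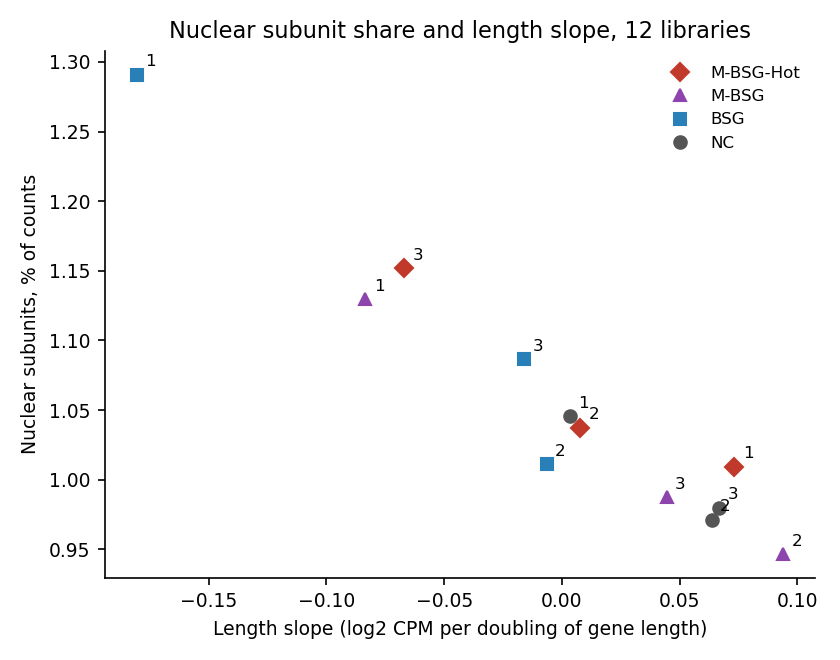
Share of counts in the 82 nuclear subunits, in percent, against the slope of log2 CPM on gene length, 1 point per library labelled by replicate number. BSG 1 has the lowest slope (-0.18) and the highest share (1.29%), M-BSG 2 the highest slope (0.09) and the lowest share (0.947%).

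By complex, the median log2 fold change of the nuclear subunits in BSG over NC was 0.29 for complex I (36 genes), 0.09 for II (4), 0.32 for III (10), 0.32 for IV (13 tested) and 0.34 for V (17). In M-BSG-Hot the medians were 0.15, 0.10, 0.17, 0.20 and 0.17 in the same order, and in M-BSG 0.09, 0.03, 0.11, 0.12 and 0.15. The mitochondrial members of complex I had medians of 0.16 in M-BSG-Hot, 0.36 in M-BSG and 0.57 in BSG, so they lay well above its nuclear members in M-BSG and BSG and at about the same value in M-BSG-Hot. The 3 of complex IV had 0.15, 0.18 and 0.23, below their nuclear partners in M-BSG-Hot and BSG and above them in M-BSG. No test was made of these differences between complexes.

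In complex I the most abundant nuclear subunits per length were NDUFS6 and NDUFS5, accessory subunits, at 359.8 ± 25.5 and 309.9 ± 4.13 FPKM in NC. NDUFS6 had 178, 193 and 229.8 CPM in M-BSG-Hot, 235, 163 and 176 CPM in M-BSG, and 302, 193 and 207 CPM in BSG, against 197, 174 and 169.8 CPM in NC, with every group overlapping NC. NDUFC1, an accessory subunit of the membrane arm, came nearest to passing in BSG (41.4, 27.7 and 32.1 CPM in BSG against 26.7, 22.7 and 24.3 CPM in NC, log2 0.46, adjusted p = 0.0536). NDUFA9, another accessory subunit, was at 101 ± 8.30 CPM in M-BSG-Hot, 96.5 ± 3.74 in M-BSG and 105 ± 10.5 in BSG, against 89.3 ± 1.92 in NC, and did not pass (log2 0.18, 0.11 and 0.24).

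Complex II has nuclear genes only. SDHA, its flavoprotein, had 343 ± 35.2 CPM in M-BSG-Hot, 312 ± 1.94 in M-BSG and 317 ± 18.2 in BSG, against 309 ± 11.7 CPM in NC, with log2 fold changes of 0.15, 0.01 and 0.04 (SE 0.0799 each). SDHB, the iron-sulfur subunit, had 118 ± 8.82, 113 ± 16.5 and 129.6 ± 25.2 CPM in those groups, against 103 ± 4.79 CPM in NC. None of the 4 genes passed.

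In complex III, UQCRH, the hinge subunit next to cytochrome c1, was the most abundant nuclear gene of the complex per length (355 ± 11.0 FPKM in NC). It had 258, 265 and 314 CPM in M-BSG-Hot, 307, 256 and 247 CPM in M-BSG, and 359, 247 and 300.3 CPM in BSG, against 246, 226 and 234 CPM in NC, so each treated group lay above NC without passing (log2 0.25, 0.20 and 0.36, adjusted p = 0.341, 0.45 and 0.074). Its retrocopy UQCRHL had 15.2 ± 1.70, 14.7 ± 0.591 and 16.0 ± 2.68 CPM in those groups, against 12.7 ± 0.745 CPM in NC, and log2 fold changes of 0.25, 0.21 and 0.33. Both genes lie on chromosome 1, and their coding sequences of 276 bases are 98.6% identical. They are shown from the GENCODE transcripts to make clear how few positions can assign a read, with the 4 that differ in capitals.
UQCRH: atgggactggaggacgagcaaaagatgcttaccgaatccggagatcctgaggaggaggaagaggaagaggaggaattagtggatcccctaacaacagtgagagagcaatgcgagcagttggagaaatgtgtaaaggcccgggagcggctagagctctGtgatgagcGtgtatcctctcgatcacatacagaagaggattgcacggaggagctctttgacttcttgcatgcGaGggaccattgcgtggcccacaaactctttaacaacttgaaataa
UQCRHL: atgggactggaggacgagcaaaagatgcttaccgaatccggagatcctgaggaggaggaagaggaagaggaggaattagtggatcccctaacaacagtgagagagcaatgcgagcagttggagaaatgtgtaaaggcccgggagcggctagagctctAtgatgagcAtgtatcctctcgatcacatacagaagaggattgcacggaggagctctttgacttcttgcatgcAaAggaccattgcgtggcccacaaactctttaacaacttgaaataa
The split of reads between the 2 genes is therefore uncertain, and so is the level of UQCRHL. UQCR10, another small subunit, had log2 fold changes of 0.18, 0.09 and 0.20 over NC.

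In complex IV, COX6A1 and COX4I1, the general-purpose forms of subunits VIa and IV, led the nuclear genes with 306 ± 32.6 and 301 ± 7.97 FPKM in NC. COX4I1 had 377, 395 and 493 CPM in M-BSG-Hot, 464, 352 and 376 CPM in M-BSG, and 548, 390.4 and 413 CPM in BSG, against 376, 350.1 and 355 CPM in NC. M-BSG-Hot 3, M-BSG 1 and BSG 1 were the high libraries. COX7A2 and COX6C came nearest to passing in BSG, with log2 fold changes of 0.44 (adjusted p = 0.055) and 0.41 (adjusted p = 0.0615). NDUFA4 had 131 ± 11.5 CPM in M-BSG-Hot, 128 ± 15.2 in M-BSG and 153 ± 31.1 in BSG, against 119 ± 8.10 CPM in NC. Its hypoxia-inducible relative NDUFA4L2 was low in all groups, at 1.43 ± 0.214 CPM in M-BSG-Hot, 1.28 ± 0.545 in M-BSG and 1.43 ± 0.400 in BSG, against 1.61 ± 0.289 CPM in NC, and did not pass.

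The tissue-restricted partners of complex IV subunits that the deposited tables hold were close to absent. COX4I2, COX6A2 and COX7B2 were not among the deposited symbols. COX8C had 10 counts over the 12 libraries, beside 117 ± 10.2 CPM of COX8A, its general form, in NC. COX8A itself did not pass, with log2 fold changes of 0.20 in M-BSG-Hot, 0.01 in M-BSG and 0.22 in BSG, and neither did COX7B (0.20, 0.13 and 0.25). COX6B2, the testis form of subunit VIb, had 2, 5 and 0 counts in M-BSG-Hot, 1, 3 and 3 in M-BSG, and 20, 10 and 7 in BSG, against 1, 1 and 1 in NC. Each BSG library had more than any other library. The ratio of BSG to NC, scaled by library size, was 11.8 with a 95% counting interval of 3.72 to 59.6. The filter on low counts removed the gene from the test; without that filter its log2 fold change was 3.46 (edgeR adjusted p = 0.0258, with 3.81% of all genes higher), and DESeq2 gave 3.66 (adjusted p = 0.0165). Its more abundant partner COX6B1 had 123 ± 15.7, 115 ± 18.2 and 136 ± 28.2 CPM in M-BSG-Hot, M-BSG and BSG, against 103 ± 11.5 CPM in NC, and COX6B2 at 0.337 ± 0.197 CPM in BSG stayed a small fraction of it.

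In complex V, ATP5F1B had 787, 787 and 889 CPM in M-BSG-Hot, 823, 736 and 771 CPM in M-BSG, and 907, 784 and 829 CPM in BSG, against 771, 732 and 734 CPM in NC. M-BSG-Hot and BSG lay above NC by small margins, with log2 fold changes of 0.14 and 0.17, neither past the threshold. ATP5F1A, the alpha subunit that alternates with beta in the catalytic head, had 0.21, 0.09 and 0.17 in M-BSG-Hot, M-BSG and BSG on the log2 scale. ATP5MG, a membrane subunit, had 411 ± 41.7, 379.97 ± 40.1 and 443 ± 82.6 CPM in those groups, against 349 ± 23.8 CPM in NC. ATP5F1E, the epsilon subunit of the central stalk, was the exception in level, at 72 to 216 counts per library and 0.893 FPKM in NC. Its counts summed over each group were 308 in M-BSG-Hot, 503 in M-BSG and 547 in BSG, against 347 in NC. ATP5F1E was not called over NC in the main fit, while DESeq2 called it higher in BSG (log2 0.68, adjusted p = 0.0451, with 8.3% of all genes higher). The edgeR fit without M-BSG-Hot 2 did so too (log2 0.68, adjusted p = 0.0330). Its value is uncertain, because the deposited tables count it over 3610 bases and a read-through gene, SLMO2-ATP5E, covers it too, with 1 count in all.

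No member passed in the 2 comparisons made between treated groups; M-BSG-Hot was not tested against BSG. In M-BSG against BSG, where 0% of all genes were called higher and 0.13% lower, none of the 13 mitochondrial and 80 nuclear subunits was called by edgeR or by DESeq2 (0.0681% of all genes higher and 0.199% lower), and 0 and 3 of them had an unadjusted p under 0.05, beside 1042 of all 15407 genes. The nuclear median was -0.19, with 79 of 80 below 0; it was -0.04 without BSG 1. The log2 difference was -0.09 for ND1, -0.02 for ND2 and 0.02 for CYTB (SE 0.104, 0.118 and 0.0898). The mitochondrial median was -0.05, with 4 of 13 above 0. With the gene length trend removed it was 0.11, with 12 of 13 above 0, and the nuclear median was -0.05, with 19 of 80 above 0. With the 3 libraries that stand apart left out, NDUFB11 (log2 -0.34) and NDUFB5 (log2 -0.37), both membrane-arm subunits of complex I, were called lower in M-BSG than in BSG, as were 0.244% of all genes.

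In M-BSG-Hot against M-BSG, 0.0974% of all genes were called higher and 0.597% lower. No mitochondrial or nuclear member was called by edgeR or by DESeq2 (0.258% of all genes higher and 1.28% lower), and 2 mitochondrial genes and 1 nuclear gene had an unadjusted p under 0.05, beside 1362 of all 15407 genes. ATP8, ND5 and ND6 were lower in every M-BSG-Hot library than in any M-BSG library, with log2 differences of -0.26, -0.23 and -0.31 (SE 0.121, 0.0854 and 0.110, adjusted p = 0.57, 0.398 and 0.36), beside 7.5% of all genes that were placed so. The difference was -0.12 for ND1, -0.09 for ND2 and -0.02 for CYTB. ATP5F1E was at 1.96, 4.05 and 2.31 CPM in M-BSG-Hot against 4.76, 4.45 and 4.42 CPM in M-BSG (log2 -0.71, SE 0.240, adjusted p = 0.323), and among the alternative analyses passed only without M-BSG-Hot 2 (log2 -1.09, with 0.4% of all genes lower). The nuclear median was 0.06, with 64 of 80 above 0, and its sign was not stable. It was 0.16 (78 of 80 above 0) without M-BSG 1, -0.01 (35 of 80) without M-BSG 2 and -0.03 (23 of 80) without M-BSG-Hot 3.

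Around the complexes, 6 lists of 125 genes were read, of which 122 were tested. In M-BSG-Hot against NC 1 was higher and 2 were lower, in M-BSG 6 and 3, and in BSG 13 and 1. Beside these counts, 1.4%, 3.22% and 5.5% of all tested genes were called higher in the same order, and 3.51%, 3.13% and 6.22% lower. These shares hold for each list below as well. A link between a listed gene and the mitochondrial genes was not tested. Of 17 genes of mitochondrial DNA transcription and replication, 1 was called in M-BSG and in BSG, beside 3.22% and 5.5% of all genes. That gene was TFB2M. It encodes the factor that opens the mitochondrial promoters for the RNA polymerase, and it was at 33.6 ± 4.66 CPM in M-BSG and 36.4 ± 5.71 CPM in BSG, against 22.2 ± 1.38 CPM in NC (log2 0.59, adjusted p = 0.011, and log2 0.71, adjusted p = 0.00248). Among 19 genes of mitochondrial RNA processing, FASTKD5, which acts in the maturation of transcripts not flanked by tRNAs, was higher in M-BSG (34.6 ± 0.306 CPM) and BSG (32.5 ± 2.51 CPM) than in NC (25.5 ± 0.264 CPM). PTCD2, known in mouse for the processing of the cytochrome b transcript, was lower in all 3 groups, at 20.4 ± 1.85 CPM in M-BSG-Hot, 23.7 ± 0.967 in M-BSG and 19.8 ± 1.42 in BSG, against 30.3 ± 2.35 CPM in NC (log2 -0.57, -0.36 and -0.62). TRMT10C, a subunit of mitochondrial RNase P, was higher in BSG (log2 0.42), and PTCD3, a mitochondrial ribosome protein, lower in M-BSG (log2 -0.25).

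Among 9 regulators of mitochondrial biogenesis, MYC was higher in all 3 groups, at 49.7 ± 5.74 CPM in M-BSG-Hot, 38.3 ± 1.94 in M-BSG and 53.1 ± 3.29 in BSG, against 28.7 ± 1.78 CPM in NC. GABPB1, a subunit of the ETS-family factor that binds many respiratory-chain promoters, was higher in M-BSG (log2 0.28) and BSG (log2 0.40), and the coactivator PPRC1 in M-BSG (log2 0.47). Of 49 tested assembly factors, 5 were higher in BSG, beside the 5.5% of all genes: CMC2, NDUFAF2, NDUFAF4, SCO2 and SDHAF2, with log2 fold changes of 0.46 to 0.57; in M-BSG the complex III factor BCS1L was lower (log2 -0.40), and in M-BSG-Hot LYRM7, also of complex III, was lower (log2 -0.46). Among 14 genes of cytochrome c and coenzyme Q, CYCS, which encodes cytochrome c, was higher in BSG (365 ± 53.4 CPM against 282 ± 2.36 CPM in NC), as was COQ3. COQ10B, a coenzyme Q-binding protein, was higher in M-BSG (log2 0.68) and BSG (log2 0.41) than in NC, and lower in M-BSG-Hot (29.3 ± 1.43 CPM) than in M-BSG (41.7 ± 2.12 CPM, log2 -0.51, adjusted p = 0.0206). None of 14 TCA cycle genes passed in any comparison, and no gene of the 6 lists passed in M-BSG against BSG. The lists' median log2 fold changes over NC lay between 0.02 and 0.15 in M-BSG-Hot, between 0.00 and 0.21 in M-BSG, and between 0.07 and 0.16 in BSG, beside the medians near 0 over all genes given above.

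The promoters of nuclear members are shown for what they share in sequence. In windows of 250 bases before to 50 after the start, from RefSeq (GRCh38.p14), 68 of the 82 nuclear subunits had an entry, and motifs were searched on both strands. The ETS core bound by GABP, CCGGAAG, was found in 20 of 68 (29.4%, against 14.2% of 15843 protein-coding promoters). The YY1 motif AAGATGGC was found in 11 (16.2%, against 3.91%), the NRF1 motif (GCGCA followed by its reverse complement) in 4 (5.88%, against 1.75%) and the ESRRA motif TCAAGGTCA in 1 (1.47%, against 0.24%). The 250 bases before the start are printed 5′ to 3′ on the gene's strand, with motif matches in capitals, for 3 genes. ATP5MK is the 1 called nuclear subunit (chr10:103396476-103396725, minus strand, an ETS core in both directions, overlapping). ATP5PF is a stator subunit of complex V with YY1 and ETS matches (chr21:25735055-25735304, minus strand). Its window lies inside the listed span of the gene, which ends at 25735653, so the start used for ATP5PF is an internal one. SDHD is a membrane anchor of complex II with NRF1 and ETS matches (chr11:112086623-112086872, plus strand).
ATP5MK: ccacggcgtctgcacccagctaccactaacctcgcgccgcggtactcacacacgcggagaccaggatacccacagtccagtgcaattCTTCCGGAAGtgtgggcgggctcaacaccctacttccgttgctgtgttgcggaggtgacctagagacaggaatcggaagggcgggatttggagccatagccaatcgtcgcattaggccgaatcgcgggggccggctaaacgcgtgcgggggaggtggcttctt
ATP5PF: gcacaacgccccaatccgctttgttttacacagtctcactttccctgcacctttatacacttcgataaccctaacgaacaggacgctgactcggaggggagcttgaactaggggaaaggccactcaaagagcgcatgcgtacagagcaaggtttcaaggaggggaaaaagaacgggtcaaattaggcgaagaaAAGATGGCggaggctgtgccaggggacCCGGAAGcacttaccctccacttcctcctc
SDHD: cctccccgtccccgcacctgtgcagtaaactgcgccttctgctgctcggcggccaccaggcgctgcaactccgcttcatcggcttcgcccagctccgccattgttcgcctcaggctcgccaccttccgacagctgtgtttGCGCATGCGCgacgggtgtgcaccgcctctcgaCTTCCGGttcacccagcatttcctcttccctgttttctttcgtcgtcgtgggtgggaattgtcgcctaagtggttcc
A match is a description of the letters and does not show that the factor is bound in these cells.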

How the data were processed

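RNA was extracted with an RNeasy kit and sequenced from SMARTER mRNA-Seq libraries, per the labels' protocols. For each of 12 libraries the authors deposited a table of raw counts and a table of FPKM per gene symbol; 100% of the deposited FPKM values above 0 equal count over gene length and library total (relative tolerance 1e-06). The sources used here name no aligner or counting program and do not say whether strand was used. GRCm38 and mm10, which are mouse builds, stand in the submitters' processing notes, while symbols are human and the implied lengths of 13 of 13 mitochondrial genes equal the human RefSeq lengths; the build is unresolved, and no coordinates are taken from the tables.

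Counts were tested with edgeR 4.0.16 (TMM factors, filterByExpr with a minimum count of 10, quasi-likelihood test with the 12 libraries in a single fit and a mean for each group, 15407 genes, Benjamini-Hochberg adjustment within each of 5 comparisons, threshold 0.05). SE is the absolute log2 fold change over the square root of F. Samples were grouped by their titles. Alternatives were other scalings, DESeq2 1.42.0, limma 3.58.1 voom, other count filters, the replicate block, removal of a lowess trend on gene length (span 0.3), and leaving out libraries. On data simulated for BSG against NC, the test called 33.3% of 48 genes changed by 0.5 on the log2 scale and 77.6% of 49 changed by 1. A single-gene permutation test of 3 against 3 libraries cannot pass the threshold and was not used. Members and lists were chosen with earlier results of these data known. Genes named are all 13 mitochondrial genes, every called member and the 2 most abundant nuclear members of each complex. In each complex the 1 with the smallest adjusted p per comparison against NC is named too. So are the genes of 7 isoform pairs, where among the deposited symbols, and called genes of the 6 lists. Replicate numbers have no stated meaning and were not used as pairs in the main fit. Deviations from group means correlated between -0.287 and 0.408 over 18 same-numbered pairs, and between -0.320 and 0.289 over 36 others. The highest value was that of BSG 1 with M-BSG 1, so a link between some same-numbered libraries stays possible. Motifs were searched as exact letters.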

Additional observations from a re-analysis of the deposited data

How the results depend on the processing

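Over 23 alternatives, no result of a member changed direction after being called. ND1 stayed called in 23 of 23 in M-BSG and in BSG, with log2 fold changes of 0.49 to 0.68 in M-BSG and 0.49 to 0.76 in BSG. Leaving out 1 library gave 0 to 3 mitochondrial genes higher in M-BSG-Hot than in NC, 1 to 4 in M-BSG and 3 to 6 in BSG. The M-BSG-Hot count was 0 without NC 2, NC 3 or M-BSG-Hot 3. Of all genes, 103 of 15679, 115 of 15691 and 135 of 15718 were then higher. The M-BSG count was 1 without NC 2 or NC 3, beside 295 and 306 of all genes. The BSG count was 3 without either, beside 428 and 424. The count of nuclear members higher in BSG than in NC was the least stable value. The all-gene values, in brackets, moved too. The nuclear count was 1 as reported (5.5%), 3 with RLE factors (942 of 15407) and 0 with library size alone (574 of 15407). It was 17 with DESeq2 (8.3%), 10 with no count filter (3.81%) and 0 when only the groups compared were fitted (648 of 15050). It was 10 with the gene length trend removed (8.33%), and 9 with BSG 1, M-BSG 1 and M-BSG-Hot 3 left out (7.07%). Leaving out 1 library gave 0 to 31, with 31 without BSG 2 (7.91%) and 15 without M-BSG 1 (1329 of 15717). Without BSG 1, M-BSG 1 and M-BSG-Hot 3, 1 nuclear member was lower in BSG than in NC (9.22% of all genes). In that analysis 1 was lower in M-BSG than in NC (5.93%) and 2 were lower in M-BSG than in BSG (0.244%). In M-BSG-Hot against M-BSG, leaving out 1 library gave 0 to 1 nuclear member lower, the 1 without M-BSG-Hot 2 (0.4% of all genes). With the replicate block the count of nuclear members higher in BSG was 13, beside 1017 of all 15407 genes. The replicate numbers share no stated source, so this is not a paired result. Library size alone shifted the median over all genes by under 0.1, to -0.09 in BSG against NC, and of all genes called there 29.9% were higher, against 46.9% with TMM factors; these shares were 18.1% and 28.4% in M-BSG-Hot against NC, and 37.7% and 50.7% in M-BSG against NC. The cause of these changes was not tested. In the simulated data, with 3 libraries a group, detection of changes under 2-fold was limited. The genes changed there were drawn from all tested genes, and no shift shared by a whole library was simulated. Detection for the members themselves was therefore not measured.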
